A study of Mus musculus with 22 samples.

Results

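The clustered protocadherin genes lie side by side on mouse chromosome 18 in an alpha, a beta and a gamma cluster. The DNA methylation described here is that of the cytosines between bases 36925000 and 37850000 of chromosome 18 (mm10). A position is 1 cytosine of a CpG on 1 strand, and it was kept where all 12 methylation libraries list it. These were 1148 of the 759352 positions that all 12 libraries list, and they belong to 797 CpGs, of which 351 were read on both strands. The alpha cluster held 354 of them, the beta cluster 83 and the gamma cluster 629, and the remaining 82 lay between or beyond the clusters. RNA counts of the 58 annotated genes, 14 alpha, 22 beta and 22 gamma, are set beside them.

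All mice were C57BL/6. Müller cells, the main glia of the retina, were sorted by flow cytometry from retinas of mice with a green fluorescent reporter under Rlbp1, a retinoid carrier gene of these cells, so a cell was collected by the activity of that reporter. NMDA, an excitotoxin that acts on glutamate receptors and damages neurons of the inner retina, was injected into the vitreous of mice of 2 to 3 months, and Müller cells were taken 2 days later. Aged Müller cells came from mice of 1.5 years. Retinal progenitor cells (RPCs), from which neurons and Müller glia arise, came from retinas of embryonic day 12.5, with no sort stated in the labels. Young Müller cells, from untreated mice of 2 to 3 months, are what the other 3 groups are compared with. Methylation was read by reduced representation bisulfite sequencing (RRBS), which samples CpG-dense fragments, in 3 libraries of each group. RNA was sequenced in 3 NMDA, 2 aged, 3 RPC and 2 young libraries.

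Clustered protocadherins are cell surface adhesion proteins that bind the same isoform on a neighbouring cell, and in neurons they give cells a surface identity used in self-avoidance and synapse formation. Each alpha and gamma gene has its own promoter and large first exon, which is spliced to constant exons shared by the whole cluster, while each beta gene is a single exon. In mouse neurons the alternate promoters are chosen stochastically with help of CTCF and cohesin, and the unchosen ones carry DNA methylation laid down by Dnmt3b. The C-type genes Pcdhac1, Pcdhac2, Pcdhgc3, Pcdhgc4 and Pcdhgc5 sit at the downstream ends of the alpha and gamma clusters and are not under this choice.

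The libraries differed in ways that touch the results. Median coverage of the member positions ranged between 50 and 113 reads over the 12 libraries, and no position has fewer than 10. Young methylation replicate 1 stood apart: its levels at the members correlated at 0.935 and 0.938 with the other young libraries, while those 2 correlated at 0.969, and its 2 strands correlated at 0.764 over CpGs against 0.858 to 0.964 in the other 11 libraries. In RNA, the 2 young libraries listed fewer genes than the others, 13913 and 14919 against 20920 to 23618. Of the genes at 10 CPM (a gene's counts scaled to the library total) or more in every NMDA and aged library, 113 were at 0 in both young libraries, and no gene showed the reverse. Stag1, a cohesin subunit, was at 0 in every RPC and young library and at 110 to 124 CPM in the NMDA and aged libraries. The defining Müller markers Rlbp1 and Glul were present in all Müller libraries. Photoreceptor RNA was also present in the sorted cells: the summed level of 8 photoreceptor markers was 6678 to 10726 CPM in NMDA, 5262 and 8036 CPM in aged, 23.8 to 32.1 CPM in RPC and 9415 and 13565 CPM in young libraries. Neither assay can tell a change within cells from a change in which cells were collected, and in RNA fewer cells of a type and less RNA per cell cannot be told apart.

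The clusters were marked by intermediate methylation. Of the members, 53.2% had a mean level between 20 and 80% in NMDA cells, 47.8% in aged cells, 43.6% in RPCs and 48.95% in young cells, where the level is the methylated share of the reads at a position, in percent. Over all autosomal positions the same shares were 12.1% in NMDA cells, 9.58% in aged cells, 9.29% in RPCs and 11.2% in young cells. The members were not alike in this. In young cells the share was 71.4% at alternate alpha and gamma genes and 59.3% at beta genes. It was 14.6% at C-type genes, 18.5% inside the clusters but away from first exons and 14.6% outside the clusters. The mean level of all members was 40.8, 41.6 and 42.6% in the NMDA libraries, 39.6, 38.7 and 39.2% in the aged libraries, 35.8, 36.7 and 35.6% in the RPC libraries and 37.8, 42.2 and 39.5% in the young libraries. The 3 RPC libraries were the lowest of the 12.

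Levels differed more between kinds of exon than between the groups. Positions were assigned to a gene from 500 bases before to 2500 bases after its annotated start, a window that takes in the first exon or, for beta genes, the single exon. In the 626 positions at alternate alpha and gamma genes the mean level was 45.6% in NMDA cells, 43.6% in aged cells, 38.3% in RPCs and 44.1% in young cells. In the 294 positions at the 5 C-type genes it was 12.03% in NMDA cells, 8.48% in aged cells, 8.19% in RPCs and 10.2% in young cells. The 81 positions at beta genes had 75.0% in NMDA cells, 71.4% in aged cells, 73.7% in RPCs and 70.2% in young cells. Inside the clusters but away from first exons, 65 positions had 81.5% in NMDA cells, 80.2% in aged cells, 75.2% in RPCs and 79.5% in young cells. The order of these 4 classes, C-type lowest and positions away from first exons highest, was the same in all 4 groups. The classes were read at different distances from the start, with no beta position in the first 250 bases. From 250 to 500 bases, 6 beta positions had 48.6% in NMDA cells, 38.1% in aged cells, 57.9% in RPCs and 33.6% in young cells. There 203 alternate positions had 38.3% in NMDA cells, 36.2% in aged cells, 32.8% in RPCs and 36.2% in young cells. From 1000 to 1250 bases beta positions were higher in all 4 groups.

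**Figure D1:**
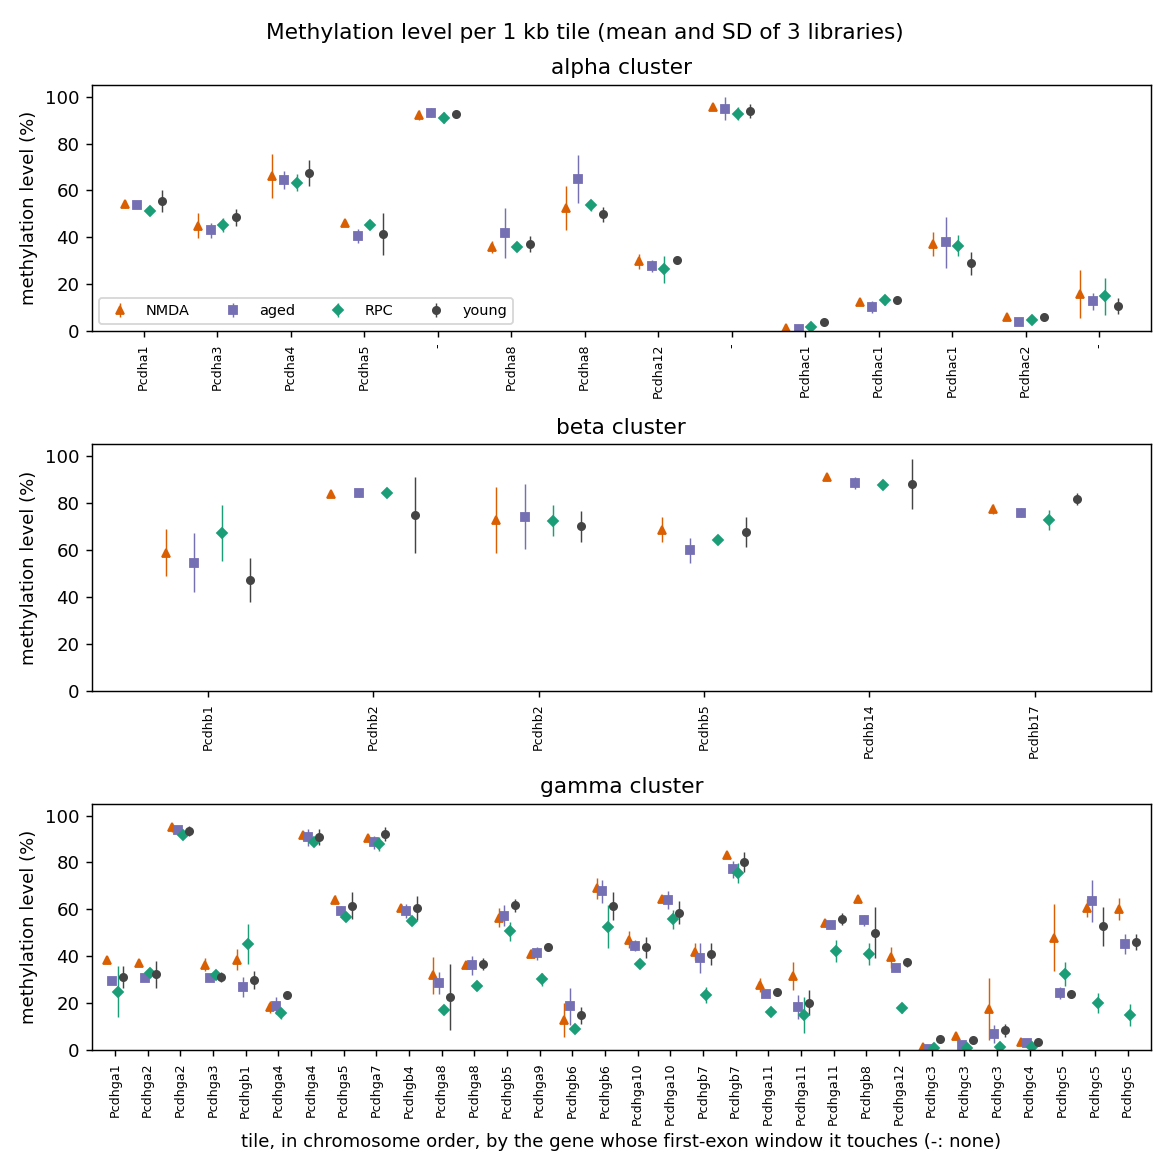
Methylation level in percent of reads (vertical axis) of each 1 kb tile with at least 5 members, in chromosome order, for the alpha, beta and gamma clusters. Points are means and bars SDs of the 3 libraries of a group; C-type tiles of Pcdhac1, Pcdhac2, Pcdhgc3 and Pcdhgc4 starts lie near the bottom, beta tiles lie high, and RPC points fall below the other groups over the downstream alternate genes of the gamma cluster.

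At alternate genes, methylation was lower just after a start than further into the first exon. The 106 positions in the first 250 bases had a mean level of 28.5% in NMDA cells, 26.6% in aged cells, 24.2% in RPCs and 28.2% in young cells. The 48 positions between 1000 and 1250 bases downstream had 67.7% in NMDA cells, 66.1% in aged cells, 56.0% in RPCs and 66.4% in young cells. The bins hold different genes, 11 and 6. A higher level further downstream was also seen within Pcdhga4 and Pcdhga2, and genes without it were not counted. At Pcdhga4, the tile from 58 to 254 bases after the start averaged 15.6% in RPCs and 23.5% in young cells. The tile from 1003 to 1141 bases averaged 88.5% in RPCs and 90.8% in young cells. At Pcdhga2, 21 positions of the first 1000 bases had 37.2% in NMDA cells, 30.9% in aged cells, 32.9% in RPCs and 32.3% in young cells, and 9 positions further downstream had 94.9% in NMDA cells, 93.7% in aged cells, 91.8% in RPCs and 93.3% in young cells. The downstream stretch was the highest tile of the gamma cluster in the mean over groups. C-type genes did not share this at the same distances. Their first 250 bases had 8.48% in NMDA cells, 6.71% in aged cells, 8.09% in RPCs and 9.47% in young cells. The stretch between 750 and 1000 bases had less, 3.44% in NMDA cells, 1.77% in aged cells, 1.18% in RPCs and 3.78% in young cells. That between 1000 and 1250 bases had 7.23% in NMDA cells, 3.39% in aged cells, 3.39% in RPCs and 6.73% in young cells. Further on C-type levels were higher too. The 22 positions between 1750 and 2000 bases had 34.7% in NMDA cells, 32.1% in aged cells, 28.9% in RPCs and 28.3% in young cells.

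**Figure D2:**
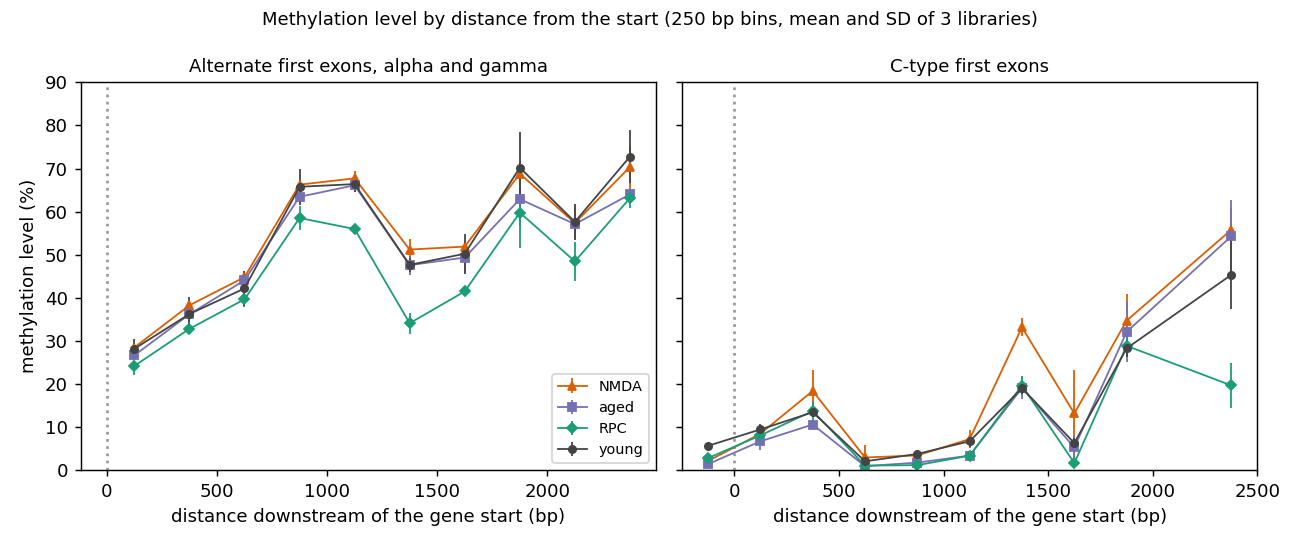
Methylation level in percent (vertical axis) by distance from the annotated gene start in bp (horizontal axis, 250 bp bins with at least 5 positions), at alternate alpha and gamma genes and at C-type genes. Points are means and bars SDs over 3 libraries; at alternate genes all 4 groups climb to a first peak between 750 and 1250 bp, and the RPC line lies lowest in every bin shown.

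The starts of the C-type genes had low methylation, apart from Pcdhgc5. The tile at the start of Pcdhgc3, the lowest gamma tile, had 2.9, 0.6 and 0.5% in NMDA libraries, 0.3, 0.9 and 0.4% in aged libraries, 0.6, 2.1 and 0.6% in RPC libraries and 4.1, 5.7 and 4.8% in young libraries. All young libraries were the highest, but the differences stayed below the 10 points asked of a call. The tile at the Pcdhgc4 start averaged 3.23% in NMDA cells, 2.96% in aged cells, 1.33% in RPCs and 3.63% in young cells. That at Pcdhac1 averaged 12.4% in NMDA cells, 10.3% in aged cells, 13.2% in RPCs and 13.3% in young cells, and the tile just before it, the lowest of the alpha cluster, had 1.26% in NMDA cells, 0.83% in aged cells, 1.81% in RPCs and 3.87% in young cells. The 29 positions in the first 1000 bases of Pcdhac2 averaged 3.43% in NMDA cells, 2.14% in aged cells, 1.89% in RPCs and 4.75% in young cells.

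RPCs differed from young Müller cells in the gamma cluster. Its mean level was 27.5, 28.6 and 26.3% in the RPC libraries, against 33.3, 36.6 and 33.9% in the young libraries, a difference of -7.11 points with no overlap. NMDA libraries had 35.5, 36.6 and 38.1% and aged libraries 33.4, 33.0 and 33.8%, and both overlapped the young libraries. The exact two-sided permutation test of RPC against young gave p = 0.10 with 3 libraries each, the smallest value that this design allows, and 0.90 after adjustment over 9 comparisons. The exact test over all 4 groups gave p = 0.00104, or 0.0031 adjusted over the 3 clusters. In the alpha cluster the means were 39.8 ± 0.46% in NMDA cells, 38.9 ± 1.03% in aged cells, 38.9 ± 0.62% in RPCs and 39.0 ± 2.56% in young cells (SD, n = 3 each; exact 4-group permutation p = 0.85). In the beta cluster they were 75.5 ± 1.403% in NMDA cells, 72.0 ± 1.38% in aged cells, 74.3 ± 1.73% in RPCs and 70.8 ± 6.75% in young cells (SD, n = 3 each; exact 4-group permutation p = 0.43), where young replicate 1 had 63.1% and the other young libraries 75.7 and 73.6%.

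The difference between the clusters was tested directly, in a comparison added after the values were seen. The gamma mean minus the alpha mean of the same library was -10.6, -10.6 and -12.9 points in RPCs, -3.9, -3.0 and -2.1 points in NMDA cells, -6.6, -5.0 and -4.9 points in aged cells and -3.4, -5.2 and -4.7 points in young cells. The 3 RPC libraries lay apart from the other 9. The exact 4-group permutation test, which covers any spread among the 4 groups, gave p = 0.000909. RPC against young alone gave an exact permutation p of 0.10, the smallest value possible. Against the mean of all autosomal positions, also compared after the values were seen, gamma members stood 3.4, 3.7 and 1.7 points higher in RPC libraries. In young libraries they stood 10.2, 12.02 and 10.3 points higher. The exact permutation test gave p = 0.0021 over the 4 groups and again 0.10 for RPC against young. All these means weight positions equally. With the reads of all positions pooled, RPC minus young was -0.69 points in the gamma cluster and 13.5 points in the alpha cluster, since pooling weights each position by its coverage. NMDA minus young was then 8.29 points in the gamma cluster and 14.8 points in the alpha cluster, against 2.15 and 0.73 points with equal weights.

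**Figure D3:**
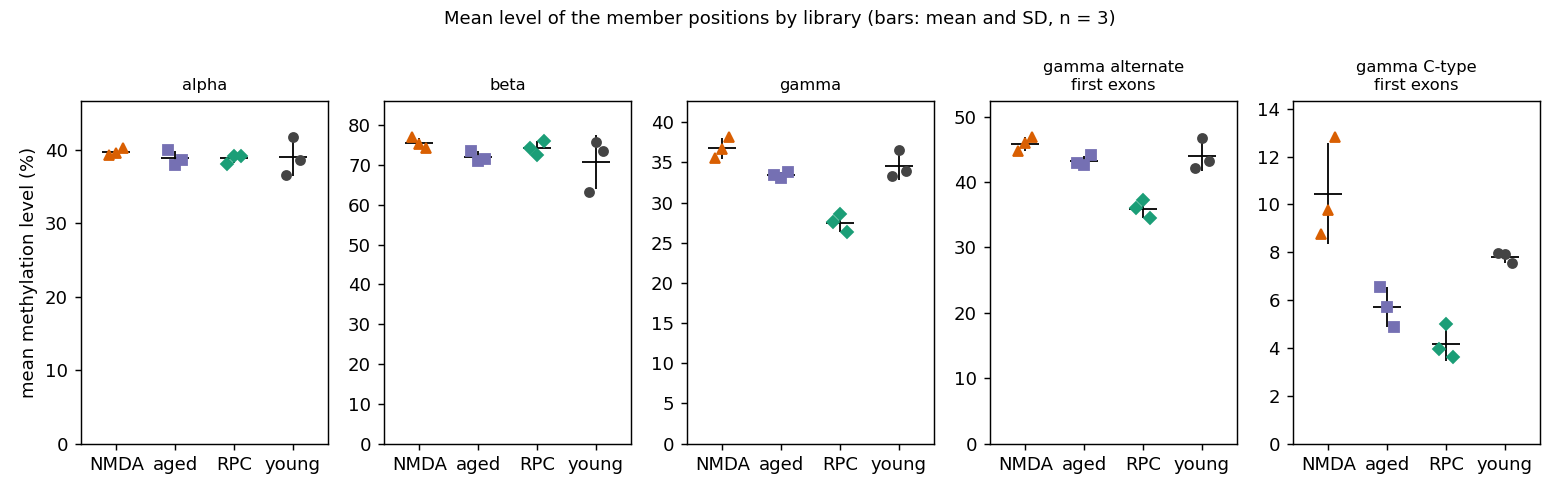
Mean methylation level in percent (vertical axis, from 0, with its own scale in each panel) of the members of each cluster and of the gamma first exons, by library. Points are libraries and bars the mean and SD of 3; in the gamma panels the RPC libraries lie lowest, and in the alpha panel the groups overlap.

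Position by position, 100 of the 1139 members that varied were lower in RPCs than in young cells and 14 were higher. A call needed an adjusted p under 0.05 over all 718061 varying autosomal positions and a difference of at least 10 points in pooled reads. Over those positions 2.71% were called lower and 4.81% higher, so RPC losses took 8.78% of members and gains 1.23%. In the gamma cluster 86 of 621 tested members were lower (13.8%) and 5 higher, and at gamma alternate genes 76 of 440 were lower (17.3%), spread over 12 genes. In the alpha cluster 1.13% were lower and as many higher. Pcdhga12, the last alternate gene of the gamma cluster, held 34 of the lower positions and Pcdhga9 13. Without young replicate 1 the counts were 92 lower and 13 higher. Without RPC replicate 3, 56 were lower, without young replicate 2, 27 were higher, and without RPC replicate 2, 9 were higher.

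Among the alternate gamma genes, losses in RPCs were larger in the downstream stretch than in the upstream one. The upstream genes Pcdhga1, Pcdhga2, Pcdhga3, Pcdhgb1, Pcdhga4, Pcdhga5, Pcdhga7 and Pcdhgb4 had RPC means that differed from young means by -4.88, -0.02, 0.74, 15.2, -5.98, -4.76, -4.19 and -5.71 points. The genes Pcdhga8, Pcdhgb5, Pcdhga9, Pcdhgb6, Pcdhga10, Pcdhgb7, Pcdhga11, Pcdhgb8 and Pcdhga12 further downstream differed by -8.21, -10.98, -13.9, -7.12, -6.30, -13.5, -10.4, -8.96 and -19.4 points. All 9 genes of the downstream stretch were lower in RPCs, while the first holds both directions. The C-type genes lie beyond Pcdhga12 and did not extend this order. RPC minus young tile means were -3.80 points at the Pcdhgc3 start, -2.29 points at the Pcdhgc4 start and 8.61 points at the Pcdhgc5 start. Larger losses followed downstream of the Pcdhgc5 start, as given below. The genes were also read at different distances from their starts. The order of the alternate genes is a description, made after the values were seen, and carries no test.

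Among 1 kb tiles with at least 5 positions, 9 of 58 were called lower in RPCs and 2 higher, where 3.63% and 10.6% of all 36865 such tiles were called. All 9 lay in the gamma cluster. At Pcdhga12, 44 positions between bases 37766775 and 37766961, 1195 to 1381 bases after the start, averaged 16.7, 20.5 and 16.8% in RPC libraries, against 39.1, 35.2 and 37.7% in young libraries. The groups did not overlap, and the pooled difference was -19.3 points (adjusted p = 1e-08). NMDA libraries had 35.8, 38.5 and 44.5% and aged libraries 34.1, 35.1 and 35.8% there, so the RPC libraries were the lowest of the 12.

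The largest losses lay in the 2 tiles downstream of the Pcdhgc5 start. The 5 positions from 2301 to 2429 bases after the start had 16.4, 18.6 and 24.7% in RPC libraries, against 55.7, 43.5 and 59.3% in young libraries (pooled difference -35.5 points, adjusted p = 0.00011). In the next tile 7 positions had 17.6, 9.6 and 17.9% in RPC libraries, against 49.04, 46.7 and 42.3% in young libraries (pooled difference -31.8 points, adjusted p = 8.1e-05). Neither tile overlapped between the groups. The median coverage was 32.5 and 62.5 reads per position.

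Other named losses in RPCs were at alternate genes. At Pcdhgb7, 7 positions had 26.1, 24.9 and 19.7% in RPC libraries, against 35.8, 42.8 and 44.5% in young libraries. At Pcdhga8, 34 positions had 28.6, 28.6 and 25.3% in RPC libraries, against 36.4, 39.3 and 34.2% in young libraries. Both sets of libraries were apart, with pooled differences of -17.7 points (adjusted p = 0.00035) and -15.3 points (adjusted p = 0.0044). At Pcdhga8 the difference of the means was smaller, -9.13 points, and limma on tile means did not call that tile. The 2 gains in RPCs were at Pcdhgb1 and Pcdhb1. The 7 positions at the Pcdhgb1 start had 39.3, 55.0 and 41.0% in RPC libraries, against 25.7, 33.0 and 31.0% in young libraries. The 8 positions at Pcdhb1, the first beta gene, had 63.0, 57.8 and 80.7% in RPC libraries, against 36.3, 54.2 and 50.6% in young libraries, and their pooled difference of 32.1 points exceeded the difference of the means, 20.1 points. Testing the tile means with limma called 7 tiles lower and 1, at Pcdhgb1, higher. Without young replicate 1, young replicate 3, RPC replicate 2 or RPC replicate 3 in turn, 1 tile was called higher.

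**Figure D4:**
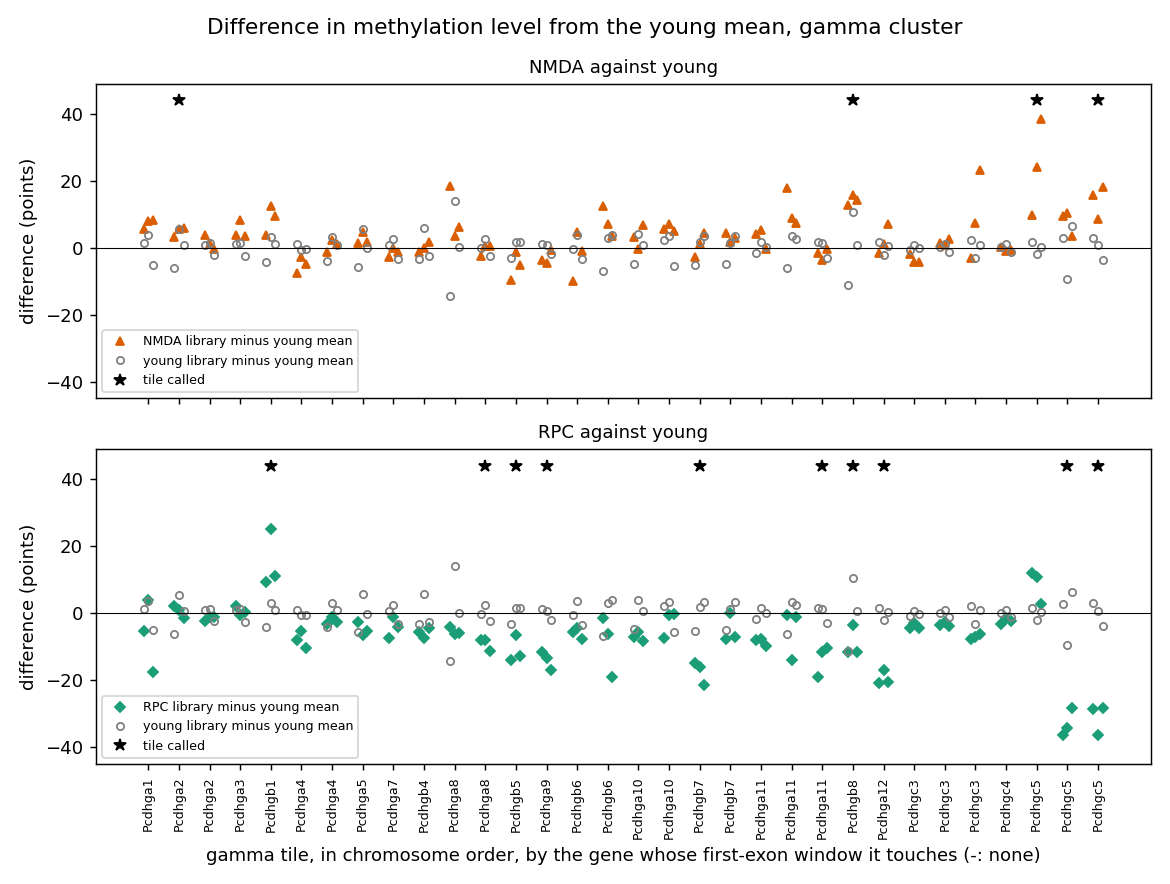
Difference in methylation level from the young mean, in points (vertical axis), for each gamma tile in chromosome order, with NMDA libraries in the upper panel and RPC libraries in the lower one. Filled symbols are NMDA or RPC libraries, open circles the young libraries, and a star marks a called tile: 4 in NMDA and 10 in RPC, of which 9 are losses.

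After NMDA the changes were fewer and mostly gains. Of the 1139 varying members 25 were higher and 6 lower than in young cells. The share higher, 2.19%, was near the 2.08% of all tested positions, so the number of gains did not set the members apart. The share lower, 0.527%, was smaller than the 1.09% of all tested positions, and no test was made of that. Pcdhgc5 held 6 of the 25. The counts moved with single libraries: without NMDA replicate 1, 2 or 3 they were 13 and 2, 5 and 1, and 3 and 0, without young replicate 2 they were 38 and 11, and without young replicate 3, 13 were lower. Of the tiles 5 of 58 were higher and none lower, against 7.86% and 0.711% of all tiles. At an unadjusted p under 0.05 by the quasi-binomial model, 6 were higher and 0 lower, and limma on tile means called 0 lower. The gamma C-type positions averaged 8.77, 9.77 and 12.8% in NMDA libraries, against 7.98, 7.93 and 7.54% in young libraries, with aged libraries at 6.57, 5.70 and 4.88% and RPC libraries at 3.94, 4.99 and 3.61%. No 2 of these 4 groups overlapped, except that an RPC library at 4.99% lay above an aged one at 4.88% (exact 4-group permutation p = 0.00013, added after the values were seen).

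The Pcdhgc5 start carried the largest difference of tile means between NMDA and young cells among the called tiles. Its 13 positions, 250 to 417 bases after the annotated start, had 33.6, 47.8 and 62.2% in NMDA libraries, against 25.5, 21.9 and 24.1% in young libraries. All 3 NMDA libraries were higher, but they spread over 28.6 points. The pooled difference was 26.4 points (adjusted p = 1e-04), and limma on tile means gave 24.0 points (adjusted p = 0.0068). Aged libraries stayed at 27.2, 22.1 and 24.0%. In the tile that begins 2468 bases after that start, 7 positions had 61.7, 54.7 and 64.0% in NMDA libraries, against 49.04, 46.7 and 42.3% in young libraries. At Pcdhgb8, annotated as a transcribed pseudogene, 6 positions had 62.7, 65.7 and 64.2% in NMDA libraries, against 38.7, 60.6 and 50.7% in young libraries. These last 2 tiles were also called on their means (limma adjusted p = 0.018 and 0.036).

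The other 2 NMDA tile calls, at Pcdhb1 and Pcdhga2, had smaller differences in their means than in their pooled reads. At Pcdhga2 the libraries overlapped, with 35.5, 38.0 and 38.1% in NMDA libraries, against 26.1, 37.8 and 33.0% in young libraries. The pooled difference was 12.7 points and the difference of the means 4.92 points. At Pcdhb1 the pooled difference was 29.9 points and that of the means 11.8 points, with overlap. Without young replicate 1, which was lowest in both tiles, 2 NMDA tiles were called higher, as without NMDA replicate 3, and 3 without young replicate 3.

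Aged cells were close to young cells at these genes. Of the varying members 4 were higher and 21 lower, 0.351% and 1.84%, against 0.448% and 3.59% of all tested positions. The share called lower in aged cells was smaller at the members than over the genome, and no test was made of that. Without aged replicate 1, 2 or 3 in turn, 10, 12 and 9 were lower, and the number higher lay between 0 and 9 over all left-out libraries, reaching 8 and 9 without young replicates 2 and 3. Of 58 tiles 1 was called higher and none lower, against 0.776% and 0.635% of all tiles. At an unadjusted p under 0.05 by the quasi-binomial model, 2 were higher and 0 lower, and limma on tile means called 0 of either. That tile, at Pcdhga10, had 68.0, 63.9 and 60.1% in aged libraries, against 60.7, 61.9 and 53.0% in young libraries. The groups overlapped, and the difference of the means, 5.47 points, was smaller than the pooled one of 10.2 points.

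RNA of the beta and gamma genes was lower in RPCs. The summed level of the 22 beta genes was 43.2, 32.4 and 41.6 CPM in RPC libraries, against 546 and 653 CPM in young libraries, and the young mean was 15.3 times the RPC mean. That of the 22 gamma genes was 449, 507 and 513 CPM in RPC libraries, against 1299 and 1804 CPM in young libraries, 3.17 times higher in young cells. By edgeR's quasi-likelihood test with Benjamini-Hochberg adjustment over 18931 genes, 20 of 22 beta and 21 of 22 gamma genes fell in RPCs and 0 rose, also at an unadjusted p under 0.05 and by DESeq2, while 24.9% of all genes were called lower and 35.9% higher. The exceptions were Pcdhb1, which had no count in RPC or young libraries, Pcdhb2 (log2 change -2.13, adjusted p = 0.21) and Pcdhgb2 (log2 change -0.93, adjusted p = 0.088). The median log2 change was -3.63 over beta genes and -1.60 over gamma genes, and 0.30 over all genes tested. The 8 photoreceptor markers all fell in RPCs too, the summed level of 10 retinal neuron markers was 683 to 1189 CPM in RPC libraries and 95.8 and 135 CPM in young libraries, and the part of these cells in the protocadherin result was not tested.

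**Figure D5:**
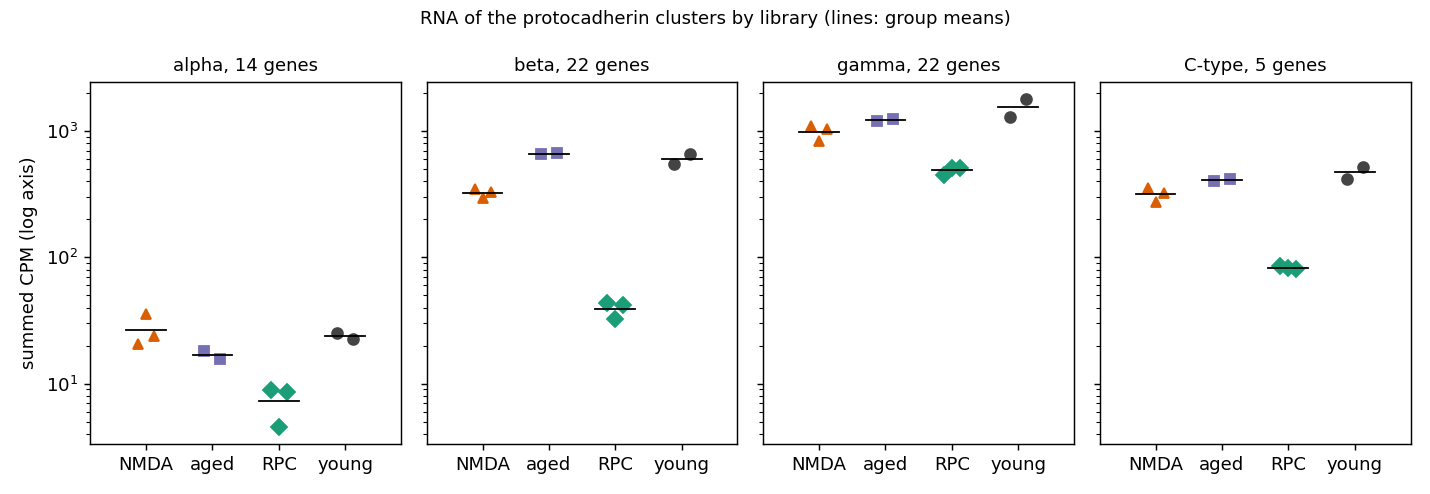
Summed RNA level in CPM (vertical axis, logarithmic) of the alpha, beta, gamma and C-type protocadherin genes by library. Each point is a library and each line a group mean; beta and gamma sums are lowest in the 3 RPC libraries, and sums of different families are not comparable because gene lengths differ.

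The 3 beta genes with the smallest adjusted p in RPCs are given first. Pcdhb12 had 0.48, 0.45 and 0.26 CPM in RPC libraries, against 48.2 and 40.7 CPM in young libraries (log2 change -6.89 ± 0.32 SE, edgeR adjusted p = 4.8e-07). Pcdhb14 had 1.24, 0.99 and 0.96 CPM in RPC libraries, against 48.1 and 75.3 CPM in young libraries (log2 change -5.96 ± 0.25 SE, edgeR adjusted p = 3.3e-07). Pcdhb9 averaged 0.94 CPM in RPCs and 47.8 CPM in young cells, with a log2 change of -5.76. Pcdhb13, named after its values were seen, had a log2 change of -6.03 and Pcdhb11 one of -5.88, both larger falls than that of Pcdhb9. Of these 5 genes only Pcdhb14 had member positions, 5 in the highest beta tile, 824 to 1080 bases after the start. Their methylation was 87.8% in RPCs and 88.2% in young cells, and the tile was not called. The young libraries had 100, 79.1 and 85.5% there. No beta gene had a member position between 500 bases before and 250 bases after its start, so methylation at the starts was not measured.

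In the gamma cluster Pcdhgc3, a C-type gene, had 67.1, 64.5 and 59.2 CPM in RPC libraries, against 353.4 and 430 CPM in young libraries (log2 change -2.75 ± 0.14 SE, edgeR adjusted p = 7.2e-07). Its start was near 0% methylated in RPCs, as given above. Pcdhgc5 had 4.41, 6.51 and 6.12 CPM in RPC libraries, against 25.7 and 43.1 CPM in young libraries, with a log2 change of -2.73. Pcdhgc4 fell with a log2 change of -1.67, Pcdhac1 with -2.51 and Pcdhac2 with -2.11, so all 5 C-type genes were lower in RPCs. Pcdhga2 had 10.6, 10.4 and 11.8 CPM in RPC libraries, against 49.4 and 61.9 CPM in young libraries (log2 change -2.47), and Pcdhga6 fell by 1.80 on the log2 scale. Pcdhga12, whose methylation was lower in RPCs and whose RNA is given here after its values were seen, had 27.7, 27.9 and 29.6 CPM in RPC libraries, against 43.5 and 57.5 CPM in young libraries (log2 change -0.96), among the smaller gamma falls. The direction of methylation was not the same at all of these genes: of 17 gamma alternate genes with at least 5 positions 15 had a lower mean level in RPCs, while Pcdhgb1, with the tile called higher, had a log2 RNA change of -2.36. Counts of alpha and gamma genes may share reads from the constant exons, since the counting rule is not given in the sources used here, so a value of a single gene is uncertain.

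After NMDA 9 of 22 beta and 10 of 22 gamma genes fell and 0 rose by edgeR (1 beta gene rose at an unadjusted p under 0.05), and by DESeq2 10 beta and 11 gamma genes fell and 0 rose, where by edgeR 14.3% of all genes were called lower and 30.6% higher. The beta sum was 348, 294 and 331 CPM in NMDA libraries, against 546 and 653 CPM in young libraries. Pcdhb12 had 16.7, 12.6 and 18.6 CPM in NMDA libraries, against 48.2 and 40.7 CPM in young libraries (log2 change -1.37 ± 0.24 SE, edgeR adjusted p = 0.0023). Pcdhb16 fell by 1.17 and Pcdhb4 by 1.35 on the log2 scale, and the groups did not overlap at either. Pcdhga11 had 45.1, 40.0 and 42.1 CPM in NMDA libraries, against 115 and 75.3 CPM in young libraries (log2 change -1.06 ± 0.18 SE, edgeR adjusted p = 0.0018). Pcdhga10 fell by 1.10 and Pcdhga8 by 0.85. Of the C-type genes Pcdhac1 fell by 2.15 and Pcdhgc3 by 0.48, while Pcdhgc5, whose start gained methylation, had 34.0, 23.3 and 28.9 CPM in NMDA libraries and 25.7 and 43.1 CPM in young libraries (log2 change -0.15, adjusted p = 0.69). Fitting the NMDA and young libraries alone left 3 beta and 3 gamma genes lower. Müller markers were lower in sum, 11856 to 14742 CPM in NMDA libraries and 38875 and 47715 CPM in young libraries, with 2 of 8 falling and 1 rising. Microglial RNA moved with NMDA as well: 5 of 6 markers rose, and their sum was 92.3, 811 and 158 CPM in NMDA libraries and 0 and 43.8 CPM in young libraries, where Aif1 and Trem2 were at 0. Of 10 retinal neuron markers 5 rose and 0 fell, with sums of 260 to 504 CPM in NMDA libraries and 95.8 and 135 CPM in young libraries. Of 6 vascular markers 4 rose and 1 fell, with sums of 2394 to 3450 CPM in NMDA libraries and 3104 and 3145 CPM in young libraries. The median log2 change of these 6 was 7.52 although the sums overlapped. Whether this rests on the zeros in young libraries given above was not tested. The part of any of these cell types in the result was not tested.

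In aged cells 2 beta genes rose and 3 gamma genes fell, where 21.1% of all genes were called higher and 5.85% lower. Pcdhb19 had 53.0 and 56.5 CPM in aged libraries, against 18.1 and 31.0 CPM in young libraries (log2 change 1.35 ± 0.30 SE, edgeR adjusted p = 0.012), and Pcdhb8 rose by 1.37. Pcdhga11 fell by 0.75, Pcdhgb8 by 0.85 and Pcdhgc5 by 0.99 on the log2 scale, and Pcdhgc5 had 13.8 and 16.4 CPM in aged libraries, against 25.7 and 43.1 CPM in young libraries. The C-type gene Pcdhac1 fell by 3.05. Of the cell type markers, 4 of 10 of retinal neurons rose and 1 fell, with sums of 157 and 162 CPM in aged libraries and 95.8 and 135 CPM in young libraries. Of 6 vascular markers 4 rose, with sums of 2647 and 2746 CPM in aged libraries and 3104 and 3145 CPM in young libraries. The median log2 change of these 6 was 7.05 although their sum was lower. Whether this rests on the zeros in young libraries given above was not tested. Of 8 photoreceptor markers 1 rose and 2 fell. The part of these cell types in the result was not tested. A fit of the aged and young libraries alone, whose filter kept 55 of the 58 genes, called 0 of them by edgeR (9 higher and 3 lower at an unadjusted p under 0.05). DESeq2 over all libraries called 12 higher and 6 lower. Of all 58 genes, 10 were called higher and 4 lower over all libraries, 25 and 8 without young replicate 2, 12 lower without young replicate 1, 5 and 1 without aged replicate 1 and 0 lower without aged replicate 2.

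Alpha genes gave low counts, and their changes rest on zeros in young cells. The summed level of the 14 genes was 20.5, 35.5 and 24.0 CPM in NMDA libraries, 18.2 and 15.7 CPM in aged libraries, 8.88, 4.52 and 8.56 CPM in RPC libraries and 25 and 22.6 CPM in young libraries. All 14 genes had a count in every NMDA and aged library and 9 to 11 in the RPC libraries, while 3 and 4 had one in the young libraries. In the edgeR fit 9 genes were called higher after NMDA, 8 in aged cells and 4 in RPCs, and 0 of them in aged cells or RPCs where each was fitted with young cells alone (6 and 0 at an unadjusted p under 0.05). Only 46 of all 58 genes passed the expression filter of the RPC fit and 55 that of the aged fit. A gene left out by the filter could not be called. Without young replicate 2, 17 of all 58 genes were called higher after NMDA, against 9 with it, and without young replicate 1, 2 were higher in RPCs, against 4. Pcdha4 had 1.83, 2.47 and 2.34 CPM in NMDA libraries, 2.80 and 2.41 CPM in aged libraries and 0.76, 0.27 and 0.87 CPM in RPC libraries, and was listed at 0 in both young libraries. Against 3 counts over the pooled young libraries, or 0.118 CPM, it was at least 18.8-fold higher after NMDA and at least 22.1-fold higher in aged cells. Such a bound covers counting error only, and does not hold for expression if the young zeros have another source than counting. With the same limit, Pcdha7 was at least 14.2-fold higher after NMDA and at least 5.94-fold higher in aged cells, and Pcdha12 at least 23.4-fold and at least 16.2-fold. The 9 alpha genes at 0 in young cells did not pass a filter of 5 CPM, under which no alpha gene was called higher. The zeros lie in the same young libraries in which 113 genes at 10 CPM or more in every NMDA and aged library were at 0, as given above. Whether this bears on the alpha genes was not tested.

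For genes known to act on the clusters in mouse, the counts below stand beside 35.9% higher and 24.9% lower of all genes in RPCs, 30.6% and 14.3% after NMDA, and 21.1% and 5.85% in aged cells. Of 12 genes for silencing and DNA methylation 7 rose in RPCs and 1 fell, 4 rose and 4 fell after NMDA, and 5 rose and 2 fell in aged cells, and the share that rose after NMDA was near that of all genes. Dnmt1, which copies methylation after replication, averaged 120 CPM in NMDA cells, 76.6 CPM in aged cells, 191 CPM in RPCs and 42.8 CPM in young cells, and Uhrf1, its partner, averaged 12.2 CPM in NMDA cells, 0.91 CPM in aged cells, 481 CPM in RPCs and 0.13 CPM in young cells. Both rose in each comparison by edgeR. Dnmt3b, named after its values were seen, had 121, 127 and 117 CPM in RPC libraries, against 0 and 7.49 CPM in young libraries (log2 change 4.98, edgeR adjusted p = 0.0047). Dnmt3a, a second enzyme that adds methylation, was at 0 and 1.48 CPM in the young libraries and at 0.35 to 1.17 CPM in the RPC libraries, but at 102 to 118 CPM after NMDA and 141 and 146 CPM in aged cells. This is close to the pattern given above for Stag1. Whether the low young and RPC values of Dnmt3a have another source than expression was not tested.

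Of 11 measured genes of cohesin, CTCF and promoter choice 7 rose in RPCs and 1 fell, 4 rose and 2 fell after NMDA, near the shares of all genes, and 4 rose and 1 fell in aged cells. Pds5a and Pds5b, cohesin regulators, rose in RPCs by 1.13 and 1.48 on the log2 scale. Ctcf had 9.67 and 0 CPM in the young libraries and 7.51 to 10.5 CPM in the RPC libraries, against 88.1 to 102 CPM in the NMDA and aged libraries, the pattern also seen for Stag1. What this pattern adds to the counts after NMDA and in aged cells was not tested. Of 14 partners and signalling genes of protocadherins 4 rose and 3 fell in RPCs, 5 rose and 1 fell after NMDA, and 4 rose and 1 fell in aged cells, and the shares in RPCs and after NMDA were near or below those of all genes. Cyfip2, a member of the WAVE complex that binds protocadherin tails, rose by 1.19 both after NMDA and in aged cells.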

How the data were processed

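The tools named are methylKit 1.4.0, Bismark 0.16.3, HISAT2 2.0.4 and Trim Galore 0.4.3, with the builds mm10 and GRCm38, per the submitters' processing notes. The authors deposited RNA read counts per gene symbol; the counting tool and strand setting are not given in the sources used here. Per the file headers, the deposited RRBS tables give coverage as read counts and the percent of methylated reads at each CpG position, listed from 10 reads. Replicates are as the labels give them, so p-values measure the spread between these samples. Gene spans came from the RefSeq GRCm38.p6 table, which matched all 58 protocadherin symbols. It gave no strand or exons, so the lower end of a span was taken as its start.

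Read counts with and without methylation were fitted over all 4 groups with a quasi-binomial model with moderated overdispersion (Python 3.11.15, scipy 1.17.1), per position and per 1000 bp tile, adjusted over all autosomal positions or tiles. Cluster means were compared by exact permutation. RNA was fitted over 10 libraries with edgeR 4.0.16 (TMM, its expression filter, 6 residual degrees of freedom, common biological coefficient of variation 0.411). Alternatives included DESeq2 1.42.0 and limma 3.58.1. Depth was 15867733, 17824333 and 17968517 counts in NMDA, 36486072 and 33213893 in aged, 14520423, 11067405 and 11442918 in RPC and 15202738 and 10149390 in young RNA libraries. The scripts were tested on simulated data. The members and gene lists were chosen with earlier results of these data known. Named genes were the C-type genes, the highest genes per cluster and up to 3 called per cluster or list, direction and comparison by adjusted p; named tiles were the 5 largest gains and losses, the highest and lowest tile per cluster and those at C-type starts. No genomic sequence is shown.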

Additional observations from a re-analysis of the deposited data

How the results depend on the processing

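Under the alternatives tried, the gamma mean of RPC minus young cells stayed negative. It lay between -7.77 and -6.12 points with 1 library left out. With the reads of all positions pooled it shrank to -0.69 points (exact permutation p = 0.90). Left-out libraries gave ranges of -0.45 to 2.09 (NMDA), -1.32 to 1.22 (aged) and -1.32 to 1.22 (RPC) points in the alpha cluster, 0.85 to 7.14, -2.62 to 3.67 and -0.36 to 5.94 points in the beta cluster, and 1.46 to 3.14 (NMDA) and -1.84 to -0.19 (aged) points in the gamma cluster. Means with a changed sign were alpha NMDA without young replicate 1 (-0.45), alpha aged and RPC without young replicate 2 (1.22 and 1.22), without aged replicate 2 (0.32) and without RPC replicate 1 (0.22), beta aged and RPC without young replicate 1 (-2.62 and -0.36) and with at least 20 reads (-3.41 and -0.98), alpha aged over tile means (0.52) and alpha RPC over positions of the 6 libraries (0.23). Pooling reads turned alpha aged (6.56), alpha RPC (13.5), beta RPC (-0.0943) and gamma aged (2.52), and raised alpha NMDA to 14.8 and gamma NMDA to 8.29 points (exact permutation p = 0.10, the smallest possible). Left-out libraries moved position counts to 3 to 38 higher and 0 to 13 lower for NMDA, 0 to 9 and 9 to 30 for aged, and 9 to 27 and 56 to 101 for RPC, tiles to 2 to 6 and 0 to 1, 0 to 2 and 0 to 2, and 1 to 2 and 8 to 10, and RNA genes to 9 to 17 and 15 to 28, 5 to 25 and 0 to 12, and 2 to 6 and 42 to 46. The replicate block gave 45 higher and 14 lower positions for NMDA and 10 and 37 for aged, and in RNA 13 lower for NMDA, 6 higher and 1 lower for aged and 2 higher for RPC. Replicate numbers did not pair the samples: deviations of same-numbered libraries correlated between -0.035 and 0.042 in RRBS and between -0.065 and 0.0985 in RNA. The 2 groups alone gave 13 and 1 positions for NMDA, 0 and 5 for aged, 9 and 66 for RPC and 3 NMDA tiles, and in RNA 7 lower for NMDA, 0 and 0 for aged and 0 higher for RPC. That RPC fit tested 46 protocadherin genes. A minimum of 20 reads gave 9 higher RPC positions, 3 NMDA and 1 RPC higher tiles. No minimum difference gave 12 lower for NMDA and 56 lower for aged. At 25 points and an adjusted p under 0.01, 2 and 0, 0 and 1, and 3 and 21 positions were left. The plain binomial model, which has no spread between libraries, gave 163 and 82, 86 and 132, and 93 and 253. Merged strands gave 7 higher for aged. Tiles of 500 bp gave 3 higher for NMDA, 1 lower for aged and 1 higher for RPC. Limma on tile means gave 3 NMDA, 0 aged and 1 RPC higher tiles, and asking for 10 points in the means too, an alternative chosen after seeing the data, left 0 aged tiles. Without an expression filter 1 gene was lower in aged cells, and a filter of 5 CPM gave 0 higher for NMDA, 2 for aged and 0 for RPC. The cause of these shifts was not tested. Of 870 refits of 52 changes of named genes, 813 kept their call, 57 lost it and none changed sign. A refit whose filter dropped the gene is not counted among them. Refits without a library of a group outside the comparison are counted. With upper-quartile scaling the NMDA median over all tested genes was 0.04 on the log2 scale, against 0.26. With 2 or 3 libraries a group, single libraries decide many counts.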

Other observations

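The tile just beyond the end of the gamma cluster, with 22 positions between bases 37842432 and 37842865 of chromosome 18 (mm10), had 13.1, 18.6 and 26.0% methylation in NMDA libraries, 8.8, 10.2 and 8.6% in aged libraries, 1.2, 3.3 and 2.4% in RPC libraries and 9.6, 11.4 and 9.0% in young libraries. All 3 NMDA libraries were above and all 3 RPC libraries below the young ones, though neither pooled difference, 9.47 and -6.97 points, reached the 10 points of a call (adjusted p = 0.00064 and 4.7e-05).

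Of 11 tested protocadherins outside the clusters, 5 rose and 4 fell after NMDA, 6 rose and 1 fell in aged cells, and 5 rose and 5 fell in RPCs by edgeR, where the shares of all genes higher and lower were 30.6% and 14.3% for NMDA, 21.1% and 5.85% for aged cells, and 35.9% and 24.9% for RPCs. Pcdh9 had 305, 256 and 261 CPM in NMDA libraries, 259 and 278 CPM in aged libraries, 2.07, 2.08 and 1.31 CPM in RPC libraries and 40.7 and 37.9 CPM in young libraries. Pcdh7 had 138, 199 and 170 CPM in RPC libraries, against 9.21 and 15.0 CPM in young libraries. Pcdh15 was at 158 to 309 CPM in the NMDA and aged libraries and at 0 in all RPC and young libraries. This is the pattern given above for Stag1, and whether these zeros have another source than expression was not tested.

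Of 12 tested neighbours of the clusters 4 rose and 2 fell after NMDA, 3 rose and 0 fell in aged cells, and 6 rose and 2 fell in RPCs, with the NMDA counts near the shares of all genes just given. Zmat2, a splicing gene, averaged 70.5 CPM in NMDA cells, 54.1 CPM in aged cells, 59.8 CPM in RPCs and 45.4 CPM in young cells, and it rose in each comparison by edgeR.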
